A study of Homo sapiens with 16 samples.

Results

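Transcript levels were compared between SETD2 KO and SETD2 WT cells of 786-O, an established line of clear cell renal carcinoma, both kept for 72 h in DMSO, the vehicle of the study's drug arm. The 6 libraries of this comparison, 3 KO and 3 WT, were chosen by their labels from 16 libraries in all, and 16260 of the 60606 gene names in each table had enough counts to be tested. The 12 libraries of 786-O, including 3 KO and 3 WT libraries of batch 1 treated with 100 nM A1331852, were fitted together so that they shared 1 estimate of the spread. The genotype labels call the KO cells null for SETD2. Replicates 1 and 2 of each genotype carried the label batch 2, and replicate 3 of each carried batch 1. The labels name 1 KO and 1 WT population of the line and do not say how the gene was disrupted, whether the KO cells came from 1 clone, or whether replicates were separate cultures. The p-values therefore measure the spread between these libraries, which may be technical, and an effect of SETD2 cannot be told apart from other differences between the populations.

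SETD2 is the enzyme that adds the third methyl group to lysine 36 of histone H3 (H3K36me3) while it travels with elongating RNA polymerase II. The mark recruits readers that restrain transcription starts within gene bodies, guide splicing and DNA methylation, and take part in DNA repair. SETD2 lies on the short arm of chromosome 3, as does the tumour suppressor VHL, and this arm is commonly lost in clear cell renal carcinoma. 786-O lacks functional VHL, so hypoxia-inducible factor is active in both genotypes.

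Levels are given in CPM, counts scaled to the same effective library size. Changes are log2 fold changes of KO over WT, so that 1 is a doubling. The value after ± is an approximate standard error worked back from the test. It is the size of the change divided by the square root of the quasi-likelihood F. A gene is called when its Benjamini-Hochberg adjusted p in edgeR's quasi-likelihood test is under 0.05. SETD2 itself (chromosome 3, 47016428 to 47164113, GRCh38) had 30.02, 28.0 and 30.2 CPM in the 3 KO libraries, against 68.3, 70.5 and 65.1 CPM in the 3 WT libraries. The genotypes did not overlap, and the change was -1.21 ± 0.18 (adjusted p = 0.000739). The remaining SETD2 counts say nothing of whether a working protein could be made from them. Total counts were 35834962, 33150599 and 18723416 in KO and 36037616, 29753887 and 15199420 in WT, so the batch 1 libraries of both genotypes were the shallower ones. All 12 renal markers checked, among them PAX8, PAX2, LHX1, KRT8, KRT18, VIM, CDH2, CDH6, CA12, EPAS1 and NDUFA4L2, had counts in all 6 libraries. Their summed level was 5955 to 8244 CPM in KO and 6922 to 10090 CPM in WT. Of 21 leukocyte markers, 10 to 13 were at 0 in KO libraries and 13 or 14 in WT libraries.

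Of the genes tested, 3001 were called, or 18.5%. A total of 1348 genes rose in KO cells (8.29% of those tested) and 1653 fell (10.2%). Counts of called members of the lists and families below are to be read against these shares. Rises were the larger changes. The median change was 1.15 among genes that rose and -0.74 among genes that fell, and 754 genes rose by at least 1 on the log2 scale while 519 fell by at least as much. At a size of 4 or more the counts were 90 and 28. With the replicate number as a block in place of batch, the count was 4646, and with that block and the 6 DMSO libraries alone it was 6214. Leaving out 1 DMSO library at a time left 1614 to 1777 calls, each of the 6 libraries lowering the count by over 1.5 times, and 1192 genes (545 higher, 647 lower) kept their call with each of them left out.

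**Figure D1:**
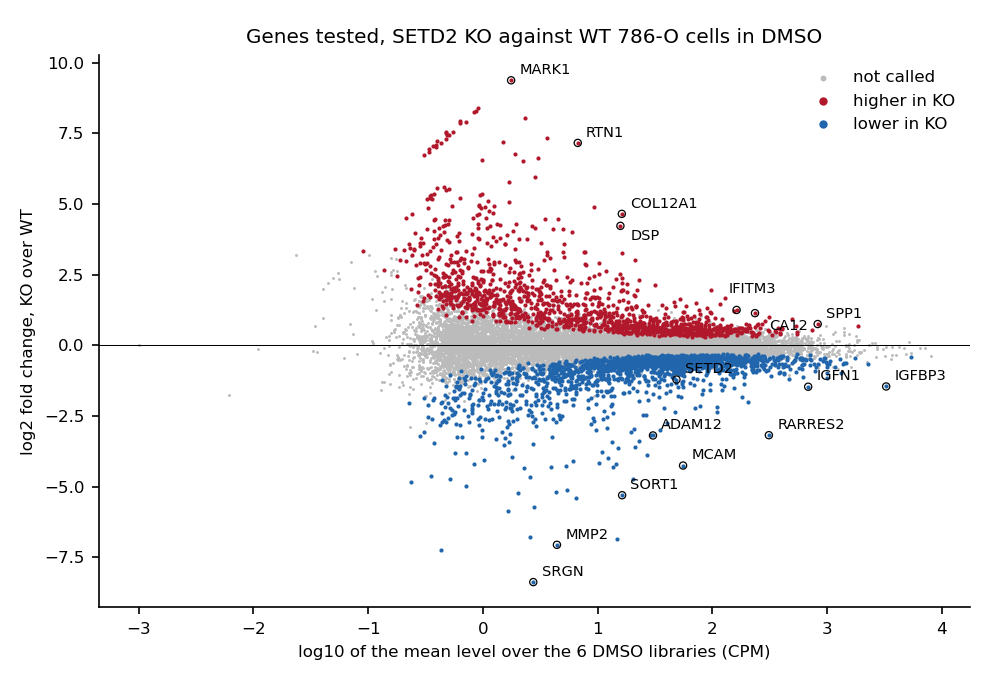
Each point is 1 of the 16260 genes tested, with the mean level over the 6 DMSO libraries (log10 CPM) across and the log2 fold change of KO over WT upwards. Red points rose in KO cells (1348), blue points fell (1653) and grey points were not called, and the widest changes lie among genes of low level, where the fitted fold of a gene at 0 in WT depends on the prior count.

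The difference between genotypes had the same sign in both batches for 2996 of the 3001 called genes, against 73.4% of all genes tested. For 2384 called genes the 3 KO values did not overlap the 3 WT values, which held for 31.7% of all genes tested. The changes called were estimated from these same 6 libraries, with batch as a term. Both counts therefore follow largely from the selection and are not a separate check. Across all genes tested, the batch 2 difference and the batch 1 difference correlated with a Pearson r of 0.745 and a Spearman rho of 0.638, a description over genes that share libraries and are not independent. The 6 libraries treated with A1331852 are not among the DMSO libraries compared, but they entered the shared estimate of the spread behind the calls. They also come from KO and WT cells of the same labels, so agreement with them is not independent support. These libraries were fitted apart as well (7.14% of genes called higher and 7.84% lower there). Of 1176 genes that rose in DMSO and were tested there, 94.8% had a positive change, 603 were called higher and 0 were called lower. Of 1605 genes that fell, 96.3% had a negative change, 775 were called lower and 6 were called higher. Over all 15266 genes tested in both treatments, 75.2% had the same sign. A498, another renal carcinoma line, had 2 libraries of SETD2 deficient cells and 2 of add-back cells by their labels. Their SETD2 transcript level was not called different (0.003 ± 0.17, adjusted p = 0.991), so the labels are not checked by that gene. There, 57.9% of the genes that rose and 61.1% of those that fell had the same sign, against 54.6% of all genes tested in both lines.

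**Figure D2:**
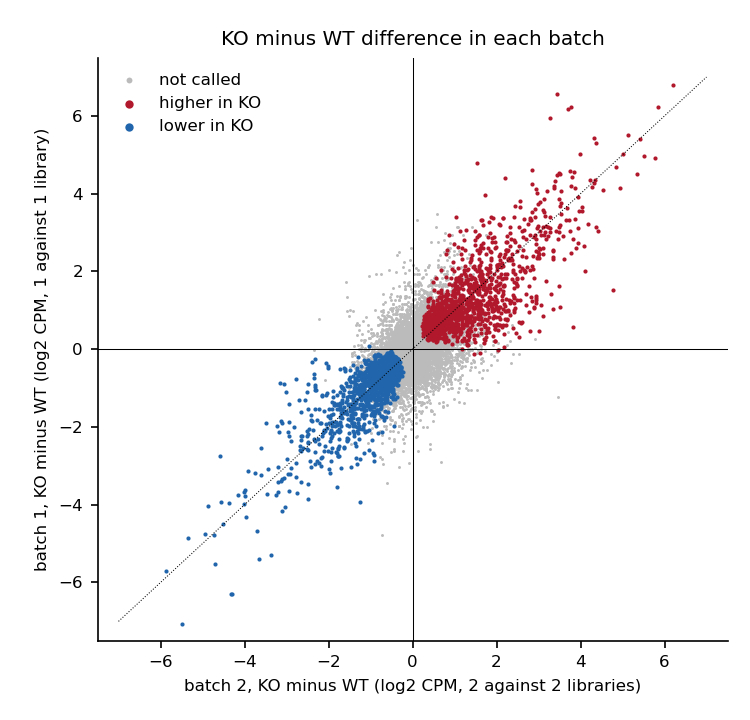
Each point is 1 gene tested, with the KO minus WT difference in batch 2 (2 against 2 libraries, log2 CPM) across and that in batch 1 (1 against 1 library) upwards, and the dotted line marks equal differences. Of the 3001 called genes, 2996 lie in the quadrants where both batches have the same sign. This follows largely from calling genes on these same libraries.

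The changes were not spread evenly over the genome. Along whole chromosomes and chromosome arms, the median change of neighbouring genes departed from 0 by a modest amount. Chromosome 1 had 50 higher and 383 lower genes of 1647 tested, with a median change of -0.30. Genes of chromosome 10 outside 40 to 60 Mb had medians of -0.40 (0 to 40 Mb) and -0.37 (60 Mb to the end), while those between 40 and 60 Mb had a median of -0.05. Chromosome 11 was split: from 0 to 60 Mb, 114 genes rose and 4 fell of 322, with a median of 0.44, and from 70 Mb to the end, 7 rose and 124 fell of 309, with a median of -0.49. Chromosome 16 was split in the same manner, with 112 higher and 7 lower genes of 415 from 0 to 40 Mb (median 0.40), and 0 higher and 128 lower genes of 307 from 50 Mb to the end (median -0.47). Other stretches with low medians were the first 30 Mb of chromosome 12 (-0.35), the first 30 Mb of chromosome 20 (-0.33) and chromosome 21 from 40 Mb to its end (-0.46). Chromosome 8 had 38 higher and 81 lower genes of 594 tested, with a median of -0.17, and its lowest window of 10 Mb had a median of -0.36.

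Over 283 windows of 10 Mb with at least 15 tested genes, the median change ran from -0.53 to 0.63. The size of 0.2 that sets windows apart below was chosen after the window medians were seen. The 56 windows with a median of -0.2 or less held 20.8% of the genes tested but 57.5% of the genes that fell, 951 in number, and 95 that rose. The 28 windows with a median of 0.2 or more held 316 genes that rose (23.4% of all rises) and 33 that fell. In the other 199 windows, 915 genes rose (8.07% of 11334 tested) and 645 fell (5.69%). The windows were sorted by the same changes that define the calls. An excess of falls in low windows and of rises in high windows is therefore built in, also for the lists below. Large falls followed the windows less, since 38.9% of falls of at least 1 on the log2 scale lay in the low windows. Of 78 windows past 0.2 in size that could be compared, 78 had the same sign in both batches and 76 in the A1331852 libraries. Agreement of the batches is not a separate check, as the windows were picked on both together. The window medians of the DMSO and the A1331852 libraries correlated with a Pearson r of 0.888 over 272 windows, against 0.071 with those of A498. DNA copy number was not measured in these files, and its part in these shifts was not tested. The median of the window is given below beside some genes and groups. Of the other genes named below, ADAM12, ADAM15, BMPR1A, CCN1, CDH11, COL18A1, COL6A1, CSF1, CTSK, ENO2, FZD6, GFRA1, IFI44L, IGFN1, ITGB2, MEGF6, MMP1, MMP15, NCAM1, P4HA1, PFKFB3, PHLDA3, PLXNA2, ROR1, RRM2B, SLC16A4, SMYD2, SNAP25, SRGN, SYT11, TGFB2, THBD, TUBB3, UNC5B and WNT5B lie in windows with medians of -0.53 to -0.22. BMPR1B, CDH4, ERAP2, LINC00632, RRM1 and WT1 lie in windows with medians of 0.22 to 0.50.

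**Figure D3:**
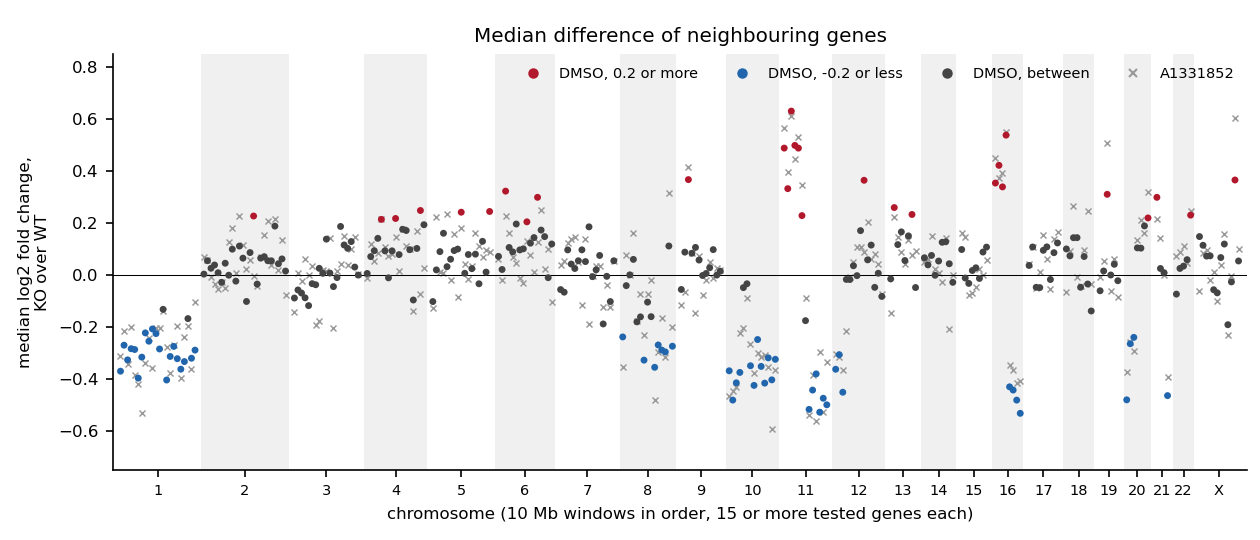
Each point is the median log2 fold change of KO over WT in 1 window of 10 Mb, in order along the chromosomes, in the DMSO libraries (red at 0.2 or more, blue at -0.2 or less, dark grey between), and crosses show the same windows in the A1331852 libraries. Chromosomes 1 and 10 lie mostly below 0, and chromosomes 11 and 16 change from positive to negative windows part of the way along.

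A small set of genes was close to silent in 1 genotype. At most 3 counts over all 3 libraries of 1 genotype, with an average of 1 CPM or more in the other, were found for 19 genes in favour of KO (16 protein-coding, 1 long non-coding and 2 pseudogenes) and for 4 in favour of WT. MARK1, a kinase that acts on microtubule-associated proteins, had 318 counts in KO libraries and 0 in WT libraries, at least 90.3-fold higher against a floor of 3 counts over the group. CDH4, a classical cadherin of retina and brain, was seen with 435 counts in KO and 1 in WT, a ratio of 371 with a counting interval of 66.2 to 14680. CLGN, a chaperone best known from the testis, had 314 counts in KO and 2 in WT, and GHR, the growth hormone receptor, had 244 and 1. NELL2, a secreted neuronal protein, had 159 and 1. These intervals and floors (95%, exact) cover counting error only.

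Several of these genes have their best known roles in neurons or in development. Among those further down the list, each with 0 counts in WT libraries, EPHA3, an ephrin receptor, had 91 counts in KO libraries, NCAM2, a neural adhesion protein, had 85, NOVA1, a neuronal splicing factor, had 146, and PCDH17, a protocadherin, had 117. The 4 genes in favour of WT were SRGN, MAOB, TLR2 and THBD. SRGN, a proteoglycan of secretory granules, had 1 count in KO and 419 in WT. MAOB, the mitochondrial enzyme monoamine oxidase B, had 3 counts in KO and 297 in WT. TLR2, a receptor for bacterial lipoproteins, had 3 counts in KO and 90 in WT, and THBD, the anticoagulant receptor thrombomodulin, had 3 and 76. The call for THBD was lost in all 6 fits that left out 1 DMSO library (adjusted p of up to 0.099).

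Among protein-coding genes with at least 5 CPM in KO cells, the largest rises were in genes that were near 0 in WT. RTN1, a reticulon of the endoplasmic reticulum most abundant in neurons, had 15.4, 14.9 and 9.73 CPM in KO, against 0.0928, 0.151 and 0 CPM in WT (7.16 ± 0.34, adjusted p = 3.56e-07). POU3F3, a homeodomain factor of nephron and brain development, had 8.41, 6.82 and 6.55 CPM in KO, against 0, 0.113 and 0 CPM in WT (7.34 ± 0.54). COL12A1, a collagen that coats other collagen fibrils, had 35.6, 34.3 and 23.9 CPM in KO, against 1.39, 1.85 and 0.520 CPM in WT (4.65 ± 0.24, adjusted p = 6.40e-07). In all of these the lowest KO library was several times the highest WT library. DSP, which encodes desmoplakin of the desmosome, had 33.1, 31.4 and 25.3 CPM in KO, against 2.20, 2.57 and 0.260 CPM in WT (4.23 ± 0.45). AFF2, linked to transcription elongation, rose by 5.95 ± 0.47, and RYR2, a calcium release channel of the heart and brain, by 4.16 ± 0.40. RRAGD, a GTPase that signals amino acids to mTORC1 at the lysosome, had 7.86, 8.34 and 11.2 CPM in KO, against 0.681, 0.831 and 1.30 CPM in WT (3.32 ± 0.24). DHRS2, a mitochondrial reductase, rose by 3.30 ± 0.49, and TRIM31, a ubiquitin ligase, by 4.03 ± 0.36. The windows that hold these genes had medians between -0.32 (RYR2) and 0.37 (AFF2).

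The largest falls included cell surface, matrix and sorting proteins. MCAM, an adhesion molecule of vessels and tumours (CD146), had 5.14, 5.67 and 5.81 CPM in KO, against 111.7, 114 and 90.9 CPM in WT (-4.25 ± 0.19, adjusted p = 2.02e-07). MMP2, the secreted protease gelatinase A, had 0.0578, 0.093 and 0 CPM in KO, against 7.34, 7.22 and 11.8 CPM in WT (-7.06 ± 0.40, adjusted p = 1.00e-06). SORT1, the sorting receptor sortilin, had 0.694, 0.496 and 1.34 CPM in KO, against 27.1, 27.5 and 41.02 CPM in WT. All 3 lie in windows with a negative median (-0.47, -0.43 and -0.23), far smaller in size than their own change. NTM, a neural adhesion protein, fell by 6.85 ± 0.84 on the log2 scale, and its WT level differed between batches, with 10.2 and 9.52 CPM in batch 2 and 68.1 CPM in batch 1. PAPLN, a matrix protein, had 0.202, 0.248 and 0.248 CPM in KO, against 6.38, 5.93 and 26.2 CPM in WT. ACKR3, a scavenging receptor for CXCL12, changed by -4.10 ± 0.50, FILIP1L by -3.89 ± 0.33, and CAMSAP3, which binds microtubule minus ends, by -3.77 ± 0.28. SYT11, a synaptotagmin, had 0.347, 0.341 and 0.0992 CPM in KO, against 9.13, 7.86 and 14.6 CPM in WT.

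**Figure D4:**
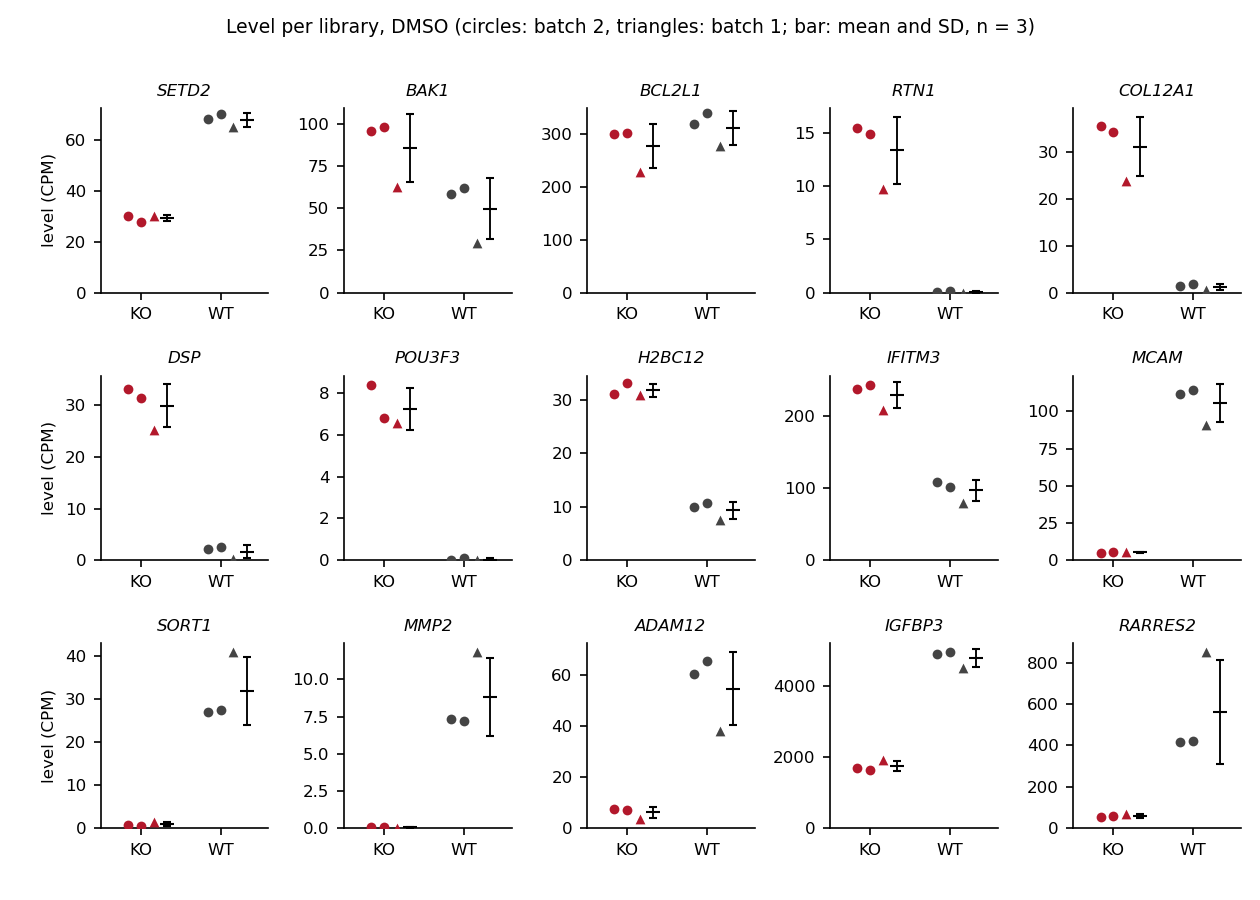
Points show the level (CPM) of 15 genes in each DMSO library, KO left and WT right, with batch 2 as circles and batch 1 as triangles, and bars show the mean and SD (n = 3). KO and WT do not overlap for 14 of the genes shown, including BAK1 (62.4 to 98.4 CPM in KO, 29.1 to 61.8 CPM in WT), and overlap for BCL2L1.

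Among abundant genes, those averaging 200 CPM or more in either genotype, 229 of 1130 tested were called, 53 higher and 176 lower. Over all genes tested, 3001 of 16260 were called, 1348 higher and 1653 lower. The most abundant gene with a large change was IGFBP3, a secreted binding protein for insulin-like growth factors, with 1707, 1639 and 1909 CPM in KO, against 4902, 4966 and 4512 CPM in WT (-1.45 ± 0.28, adjusted p = 0.00362). RARRES2, which encodes the chemoattractant chemerin, had 50.9, 57.8 and 67.8 CPM in KO, against 414, 421 and 853 CPM in WT (-3.18 ± 0.27). GFRA1, the co-receptor for GDNF, had 97.6, 89.8 and 59.1 CPM in KO, against 341, 367 and 276 CPM in WT (-2.02 ± 0.29). These secreted and surface proteins had no overlap between genotypes. MEGF6 fell by 1.84 ± 0.19 on the log2 scale, and IGFN1, an immunoglobulin domain protein, by 1.46 ± 0.14. The cyclin gene CCND1 had 297, 278 and 273 CPM in KO, against 602, 621 and 721 CPM in WT (-1.19 ± 0.26, adjusted p = 0.00755), a call that was lost without WT replicate 3 or without KO replicate 3 (adjusted p of up to 0.073). Among abundant genes that rose, MYRF, a membrane-bound transcription factor, had 244, 241 and 167 CPM in KO, against 97.2, 98.9 and 82.5 CPM in WT (1.21 ± 0.15). QPRT, an enzyme of NAD synthesis from tryptophan, had 584, 595 and 738 CPM in KO, against 282, 269.7 and 479 CPM in WT, in a window with a median of 0.34. SPP1, the secreted phosphoprotein osteopontin, had 785.7, 814 and 1461 CPM in KO, against 459, 405 and 1043 CPM in WT. SPP1 therefore overlapped between genotypes over both batches and was higher in KO within each (0.75 ± 0.16, adjusted p = 0.00597).

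Matrix proteases fell where they changed. Of 34 matrix proteases and inhibitors tested, 0 rose and 8 fell (median of the list -0.13, against -0.02 over all genes tested). The share called was 23.5%, against 18.5% of all genes. Other scaling gave 0 to 2 rises and 7 or 8 falls, and without replicate 3 of both genotypes 2 rose and 6 fell. ADAM12, a membrane metalloprotease, had 7.40, 7.13 and 3.72 CPM in KO, against 60.5, 65.3 and 38.2 CPM in WT (-3.19 ± 0.13, adjusted p = 1.42e-07). ADAMTS5, an aggrecan-cleaving protease, had 0.983, 1.18 and 2.43 CPM in KO, against 17.3, 20.4 and 32.1 CPM in WT (-3.98 ± 0.39). The collagenase MMP1, the membrane protease MMP15, ADAMTS6, ADAM15 and the cysteine protease CTSK fell by 0.72 to 2.25 on the log2 scale. ADAMTS6 lost its call without any 1 library (adjusted p of up to 0.255), CTSK without WT or KO replicate 3 and MMP1 without KO replicate 1. Of the 8 that fell, 6 lay in windows with a median of -0.2 or less, where 11 of the 34 members lay. The list median was -0.11 after the median of each gene's window was subtracted.

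Of 23 collagen genes, 5 rose and 4 fell, or 39.1% called, against 18.5% of all genes. COL12A1, COL28A1 (2.37 ± 0.31), COL6A3 (2.54 ± 0.66), COL5A1 and COL11A2 rose, and COL8A1, COL18A1, COL5A2 and COL6A1 fell. COL6A3 lost its call without any 1 of the libraries other than KO replicate 2 (adjusted p of up to 0.086). COL8A1, a short-chain collagen, had 188, 182 and 248 CPM in KO, against 396, 385 and 534 CPM in WT (-1.09 ± 0.11, adjusted p = 4.88e-05). COL18A1, the precursor of endostatin, averaged 677 CPM in KO and 1320 CPM in WT (-0.98 ± 0.21). COL18A1 lost its call without WT replicate 3 or KO replicate 3 (adjusted p of up to 0.084). COL6A1 lost it without WT replicate 3 or KO replicate 2 or 3 (adjusted p of up to 0.114). Of 25 laminins and other basement membrane genes, 1 rose (LAMA1, 1.71 ± 0.34) and 6 fell. EFEMP1, the matrix protein fibulin-3, had 6.70, 7.38 and 8.68 CPM in KO, against 39.4, 40.3 and 46.3 CPM in WT (-2.47 ± 0.28). NID2, a nidogen that links laminin and collagen networks, fell by 3.24 ± 0.40 on the log2 scale, and CCN1, a matricellular protein, by 0.92 ± 0.26, a call lost without any 1 of the 6 libraries (adjusted p of up to 0.159).

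Adhesion receptors changed in both directions. Of 20 integrin genes, 7 rose and 2 fell, and with 1 DMSO library left out 1 to 6 rose. ITGAX, an integrin known from myeloid cells, had 12.3, 12.2 and 15.4 CPM in KO, against 2.23, 2.23 and 4.62 CPM in WT (2.22 ± 0.33), in a window with a median of 0.54. ITGA6, a laminin receptor subunit, averaged 79.7 CPM in KO and 49.9 CPM in WT (0.70 ± 0.17), and ITGA1, a collagen receptor subunit, rose by 1.00 ± 0.22. ITGA6 lost its call without WT replicate 1 or 3 or KO replicate 1 or 3 (adjusted p of up to 0.114), and ITGA1 without WT replicate 1 (0.061). ITGA4 fell, with 0.347, 0.527 and 0.447 CPM in KO, against 4.77, 4.57 and 5.66 CPM in WT (-3.48 ± 0.40), and so did ITGB2 (-1.76 ± 0.24). Of 29 genes of cadherins, desmosomes and tight junctions, 6 rose and 4 fell. Beside CDH4 and DSP, the desmosomal plaque gene PKP3 rose, with 78.9, 79.1 and 45.1 CPM in KO, against 31.0, 31.3 and 16.1 CPM in WT (1.39 ± 0.22), in a window with a median of 0.49. Claudin 4 (CLDN4), a tight junction protein, averaged 219 CPM in KO and 142 CPM in WT, a call lost without any 1 of the 6 libraries (adjusted p of up to 0.147). CDH11, a mesenchymal cadherin, fell by 3.82 ± 0.42 on the log2 scale. Among 13 markers of epithelial to mesenchymal transition 1 rose and 4 fell, 3 of the 4 in windows with a median of -0.2 or less, where 7 of the 13 lay. With 1 DMSO library left out 0 rose and 1 fell in each fit. The list median was -0.41, and -0.18 after the median of each gene's window was subtracted. Vimentin (VIM), the intermediate filament of mesenchymal cells, had 5255, 5305 and 3328 CPM in KO, against 6964, 7168 and 4377 CPM in WT (-0.41 ± 0.12), close to the median of its window (-0.48). The call for VIM was lost in all 6 fits that left out 1 DMSO library (adjusted p of up to 0.157).

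Receptors and ligands of cell signalling were also among the called genes. Of 41 genes of TGF-beta and WNT signalling, 1 rose and 9 fell (median -0.20), and leaving out 1 DMSO library left 6 to 8 falls. Of the 9 that fell, 5 lay in windows with a median of -0.2 or less, where 11 of the 41 lay. The list median was -0.16 after the median of each gene's window was subtracted. ROR2, a receptor for WNT5A, had 3.87, 3.84 and 4.02 CPM in KO, against 37.0, 35.7 and 52.4 CPM in WT (-3.38 ± 0.19, adjusted p = 1.08e-06). Its relative ROR1 had 26.5, 25.6 and 18.6 CPM in KO, against 47.0, 49.2 and 37.1 CPM in WT, and the ligand WNT5B fell by 4.05 ± 0.51 on the log2 scale. BMPR1A, FZD6 and WNT3 also fell. TGFB2 fell as well but lost its call without any 1 library (adjusted p of up to 0.170), INHBB without WT or KO replicate 3, and BMPR1B without replicate 1 or 3 of WT or KO. The single rise was TCF7, a transcription factor of the WNT pathway, with 33.5, 31.8 and 15.6 CPM in KO, against 18.7, 19.1 and 6.11 CPM in WT (0.96 ± 0.15). Of 36 growth factor and receptor tyrosine kinase genes, 3 rose and 5 fell. IGF1R, the receptor for insulin-like growth factor 1, had 23, 23.6 and 20.5 CPM in KO, against 76.3, 77.8 and 77.9 CPM in WT (-1.79 ± 0.20, adjusted p = 0.000116). FGFR1 had 274, 268 and 194 CPM in KO, against 174, 179 and 97.7 CPM in WT (0.74 ± 0.12). IGF1R and IGFBP3, both of the insulin-like growth factor axis, lie in windows with medians of 0.11 and 0.02.

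Axon guidance and neural adhesion genes changed in both directions. Of 51 tested, 7 rose and 10 fell, or 33.3%. NTN1, the guidance cue netrin-1, had 8.50, 6.48 and 2.73 CPM in KO, against 0.526, 0.642 and 0.260 CPM in WT (3.62 ± 0.27, adjusted p = 8.09e-06). The netrin receptor gene UNC5B rose by 1.54 ± 0.34, ROBO1, a receptor for SLIT proteins, by 0.88 ± 0.17, and EPHB6, a kinase-dead ephrin receptor, by 3.40 ± 0.36. PLXNA2, a semaphorin receptor, averaged 2.53 CPM in KO and 15.5 CPM in WT (-2.57 ± 0.30), and NCAM1 averaged 57.5 CPM in KO and 118 CPM in WT (-1.04 ± 0.16). The clustered protocadherins, cell surface proteins with single-cell combinations of isoforms, had 4 higher and 7 lower genes of 19 tested (median -0.67). The 7 that fell were all of the beta cluster (PCDHB7, PCDHB9, PCDHB10, PCDHB11, PCDHB13, PCDHB14 and PCDHB16), with changes of -1.72 to -3.13. The 4 that rose were all of the gamma cluster (PCDHGA10, PCDHGA11, PCDHGA12 and PCDHGB7), with changes of 0.86 to 2.68. PCDHGA10 lost its call without any 1 of the 6 libraries, PCDHGB7 without replicate 1 or 2 of either genotype, PCDHGA11 without WT replicate 1 or KO replicate 1 or 2, and PCDHB9 and PCDHB16 without WT or KO replicate 3. PCDHB13 had 1.24, 0.930 and 1.29 CPM in KO, against 7.09, 7.33 and 8.32 CPM in WT. Beta members resemble each other and gamma members share exons, so that counts of single members are uncertain.

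Cytoskeletal genes fell where they changed. Of 33 intermediate filament and cytoskeleton genes, 0 rose and 7 fell, or 21.2% called, near the 18.5% of all genes. With 1 DMSO library left out 3 or 4 fell. Of the 7 that fell, 4 lay in windows with a median of -0.2 or less, where 7 of the 33 lay. The list median was -0.08, and -0.06 after the median of each gene's window was subtracted. MYH10, non-muscle myosin IIB, had 35.3, 37.8 and 34.6 CPM in KO, against 210.1, 197 and 145 CPM in WT (-2.34 ± 0.17, adjusted p = 7.29e-06). TUBA1A, an alpha tubulin, had 51.6, 56.4 and 134.6 CPM in KO, against 154, 148 and 384 CPM in WT (-1.49 ± 0.21).

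Kidney identity genes changed individually. Of 13 renal lineage factors tested, 4 rose and 2 fell. TFAP2A had 22.4, 20.6 and 16.8 CPM in KO, against 9.90, 8.95 and 7.28 CPM in WT (1.19 ± 0.13, adjusted p = 0.000145). HNF4G, a nuclear receptor of the proximal tubule, had 9.28, 9.92 and 11.6 CPM in KO, against 5.23, 4.84 and 5.72 CPM in WT (0.96 ± 0.20). The Wilms tumour factor gene WT1 rose by 0.88 ± 0.22, a call lost without wild-type replicate 3 or KO replicate 3 (adjusted p of up to 0.117). PAX2, a nephron lineage factor, averaged 30.5 CPM in KO and 47.1 CPM in WT (-0.65 ± 0.15, window median -0.42), a call lost without WT replicate 2, WT replicate 3 or KO replicate 3 (adjusted p of up to 0.118). Among 21 markers of proximal tubule and renal cancer, 3 rose and 1 fell. The fall was MME, the brush border peptidase neprilysin, with 2.95, 3.22 and 4.37 CPM in KO, against 11.1, 10.3 and 26.3 CPM in WT (-2.06 ± 0.28). CA12, a carbonic anhydrase induced by hypoxia-inducible factor, had 350, 344 and 278 CPM in KO, against 155, 151 and 134 CPM in WT (1.14 ± 0.27), and its call was lost without any 1 WT library or without KO replicate 3 (adjusted p of up to 0.056).

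Of 34 targets of hypoxia-inducible factor, 1 rose (CA12) and 8 fell, or 26.5% called, with a list median of -0.15. The falls were CCND1, IGFBP3, ENO2, PFKFB3, LOXL2, P4HA1, PDK1 and STC2. LOXL2, an enzyme that crosslinks collagen, averaged 620 CPM in KO and 1389 CPM in WT (-1.15 ± 0.33). LOXL2, P4HA1, PDK1 and STC2 lost their calls without any 1 of the 6 libraries. With 1 DMSO library left out 3 or 4 fell. Of 20 glycolysis genes, 0 rose and 6 fell, 3 to 6 with a library left out. PFKM, a phosphofructokinase subunit, had 33.6, 33.8 and 43.5 CPM in KO, against 81.6, 76.9 and 72.8 CPM in WT (-1.07 ± 0.14, adjusted p = 0.000411). ENO2, the neuronal enolase, had 28.3, 26.0 and 34.5 CPM in KO, against 87.9, 86.4 and 69.0 CPM in WT (-1.46 ± 0.27). Of the 6 glycolysis genes that fell, 5 lay in windows with a median of -0.2 or less, where 10 of the 20 members lay. The list median was -0.21, and -0.02 after the median of each gene's window was subtracted.

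Interferon-stimulated genes encode antiviral proteins and are switched on by interferon-activated factors bound to a response element in their promoters. Of 41 tested, 12 rose and 0 fell, with a median of 0.34, and 36 of the 41 had a positive change. The list median was 0.23 in batch 2 and 0.63 in batch 1, which holds 1 DMSO library per genotype. The share called was 29.3%, against 18.5% of all genes tested, of which 48.4% had a positive change. With 1 DMSO library left out 4 to 9 rose, and 4 without replicate 3 of both genotypes. IFITM3, which blocks virus entry, had 236, 242 and 208 CPM in KO, against 108.5, 102 and 79.6 CPM in WT (1.25 ± 0.24, adjusted p = 0.00413). It lies near the end of the short arm of chromosome 11 in a window with a median of 0.49. OASL had 11.7, 14.1 and 7.24 CPM in KO, against 6.53, 5.59 and 1.11 CPM in WT (1.44 ± 0.25), and the nucleotide kinase CMPK2 had 10.9, 11.01 and 5.76 CPM in KO, against 4.61, 5.10 and 2.41 CPM in WT (1.19 ± 0.22). Both lie in windows with medians of 0.01 or less. OAS1, which activates RNase L, RSAD2, the antiviral enzyme viperin, XAF1, IFI44L and EPSTI1 also rose, by 1.19 to 2.06 on the log2 scale. OAS1 and RSAD2 lost their calls without replicate 2 or 3 of either genotype, XAF1 without WT or KO replicate 3, EPSTI1 without WT replicate 2 or replicate 3 of either genotype, and IFI44L without WT replicate 3. In the A1331852 libraries 33 of the 41 were called higher, with a list median of 1.91.

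The promoters of the 3 interferon-stimulated genes with the smallest adjusted p were looked up in RefSeq (GRCh38.p14), since they show whether the response element lies next to these start sites. OASL had no entry. The sequences run from 250 bases before to 50 after the start, 5′ to 3′ on the gene's strand, and capitals mark the core of the element, which is GAAA, any 2 bases and GAAA, searched on both strands.
IFITM3 (chr11:320811-321110, minus strand): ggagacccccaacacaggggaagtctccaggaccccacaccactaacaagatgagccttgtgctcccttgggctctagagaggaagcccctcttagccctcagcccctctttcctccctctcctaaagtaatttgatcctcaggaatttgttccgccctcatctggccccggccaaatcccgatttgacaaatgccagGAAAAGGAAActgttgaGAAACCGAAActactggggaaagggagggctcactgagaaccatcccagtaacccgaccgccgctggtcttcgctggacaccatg
CMPK2 (chr2:6866586-6866885, minus strand): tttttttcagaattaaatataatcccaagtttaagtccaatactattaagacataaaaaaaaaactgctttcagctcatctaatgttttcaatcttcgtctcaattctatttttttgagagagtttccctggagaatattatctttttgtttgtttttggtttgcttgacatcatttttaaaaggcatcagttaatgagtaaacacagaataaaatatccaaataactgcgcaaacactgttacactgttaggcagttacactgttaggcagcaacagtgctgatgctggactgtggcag

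The IFITM3 window held 2 matches and the CMPK2 window 0. Of the 33 listed interferon-stimulated genes with a promoter entry, 23 held the core (69.7%), and 5 of the 11 that rose did. The core was found in 3.65% of all 27305 promoters, in 4.15% of the promoters of all genes that rose and in 1.55% of those of genes that fell. A match is a description of these letters and not a measured binding site.

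Sensors of foreign RNA and DNA and their adaptors had 3 rises and 1 fall among 16 tested, and with 1 DMSO library left out 0 to 2 rose. IRF7, a factor that switches on interferon genes, had 31.2, 32.1 and 22.4 CPM in KO, against 8.36, 9.60 and 5.33 CPM in WT (1.89 ± 0.44, window median 0.49), and its call was lost without WT replicate 1, WT replicate 3 or KO replicate 3 (adjusted p of up to 0.064). The RNA sensors TLR3 and DHX58 rose by 0.63 ± 0.16 and 1.23 ± 0.35. TLR3 lost its call without WT replicate 1 or 2 or KO replicate 1 or 2, and DHX58 lost it in all 6 fits. MAVS, the adaptor of the RNA sensors, had 118, 109 and 77.0 CPM in KO, against 161, 157 and 107 CPM in WT (-0.48 ± 0.11), equal to the median of its window (-0.48), and lost its call without KO replicate 2 or 3. The DNA sensor CGAS had 20.4, 22.01 and 16.3 CPM in KO, against 19.9, 21.3 and 9.69 CPM in WT (adjusted p = 0.332), and STING1 had 59.4, 64.0 and 63.3 CPM in KO, against 58.2, 55.2 and 73.3 CPM in WT (adjusted p = 0.982). Of 19 class I antigen presentation genes 3 rose and 0 fell. They were PSMB8, an immunoproteasome subunit with 129, 139 and 112 CPM in KO, against 89.8, 93.4 and 76.7 CPM in WT (0.55 ± 0.11), the activator subunit PSME2, and the peptidase ERAP2. PSME2 lost its call without WT or KO replicate 3, and ERAP2 without replicate 2 or 3 of either genotype (adjusted p of up to 0.132 and 0.126). Chemokines and cytokines had 1 rise (CCL26) and 3 falls of 21. Among the falls, CSF1, the macrophage growth factor, had 207, 198 and 75.4 CPM in KO, against 344, 383 and 104 CPM in WT (-0.72 ± 0.15).

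Transcripts of replication-dependent histone genes normally end in a stem loop without a poly(A) tail. As these libraries were made from poly(A)-selected RNA, the counts cover polyadenylated histone transcripts. Of the 13 that passed the filter on low counts, 10 rose and 0 fell, while 47 of the 60 listed members did not pass it, so that the 13 are not the whole family. With 1 DMSO library left out 6 to 9 rose. H2BC12 had 31.1, 33.2 and 31.0 CPM in KO, against 9.87, 10.6 and 7.61 CPM in WT (1.77 ± 0.17, adjusted p = 4.26e-05). The linker histone gene H1-2 had 9.97, 10.4 and 16.4 CPM in KO, against 4.67, 4.53 and 6.76 CPM in WT, and H2BC5 had 5.43, 5.67 and 7.10 CPM in KO, against 1.95, 1.7 and 2.34 CPM in WT. For each of these 3 genes the lowest KO library was above the highest WT library. The 10 called genes lie between 20 and 30 Mb of chromosome 6, in the main histone cluster. The 69 other tested genes of that window had a median of 0.24, against 1.47 for its 12 listed histone genes. Among 45 cell cycle genes 1 rose (RRM1, a subunit of ribonucleotide reductase, which lost its call without any 1 library) and 1 fell (CCND1, above). The cell cycle median was 0.11, with -0.07 in batch 2 and 0.41 in batch 1.

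The promoters of these 3 histone genes are shown because their boxes are the features that set histone promoters apart in this search. Capitals mark CCAAT and TATAAA, searched on both strands, where adjacent or overlapping matches run together.
H2BC12 (chr6:27146809-27147108, minus strand): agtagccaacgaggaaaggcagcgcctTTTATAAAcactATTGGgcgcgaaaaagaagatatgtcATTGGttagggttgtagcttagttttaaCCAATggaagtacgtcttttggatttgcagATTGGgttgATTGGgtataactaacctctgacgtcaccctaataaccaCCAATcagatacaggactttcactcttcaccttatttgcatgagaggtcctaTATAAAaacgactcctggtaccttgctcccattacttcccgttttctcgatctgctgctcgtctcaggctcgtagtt
H1-2 (chr6:26056421-26056720, minus strand): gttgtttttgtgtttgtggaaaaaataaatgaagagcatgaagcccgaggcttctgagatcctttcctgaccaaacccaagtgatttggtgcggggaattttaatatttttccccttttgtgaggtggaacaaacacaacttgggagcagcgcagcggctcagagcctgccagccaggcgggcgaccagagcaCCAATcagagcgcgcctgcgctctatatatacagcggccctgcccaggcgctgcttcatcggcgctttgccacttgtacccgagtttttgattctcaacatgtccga
H2BC5 (chr6:26157871-26158170, plus strand): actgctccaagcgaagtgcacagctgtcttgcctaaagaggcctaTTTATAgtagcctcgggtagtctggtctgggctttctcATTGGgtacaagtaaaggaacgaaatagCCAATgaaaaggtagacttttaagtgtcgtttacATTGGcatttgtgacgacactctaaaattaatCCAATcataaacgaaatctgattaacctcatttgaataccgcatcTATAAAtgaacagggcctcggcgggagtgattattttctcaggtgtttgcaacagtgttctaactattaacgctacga

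All 10 promoters of the histone genes that rose held CCAAT, as did 85.5% of the 55 listed histone genes with an entry and 35.7% of all promoters. TATAAA was found in 8 of the 10, in 65.5% of the listed histone genes and in 3264 of all 27305 promoters.

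The drug arm targets the cell death machinery. Pro-death genes of the BCL-2 family had 2 of 10 called and apoptosome and caspase genes 3 of 18 (16.7%), both near the 18.5% of all genes. Of the 5 pro-survival genes of the BCL-2 family tested with edgeR 0 were called, and 1 (MCL1) had an unadjusted p under 0.05. BCL2L1, which encodes BCL-XL, had 300.1, 302 and 229 CPM in KO, against 319, 340 and 277 CPM in WT, and the genotypes overlapped (adjusted p = 0.583). MCL1 had 186, 176 and 210.4 CPM in KO, against 244, 248 and 262 CPM in WT, with a change of -0.40 ± 0.14 (adjusted p = 0.061) in a window with a median of -0.40. It was called with the replicate block within treatment (adjusted p = 0.0272), and in 4 other alternatives, and BCL2A1 was called in batch 2 alone. Of 10 pro-death genes, BAK1, which forms pores in the outer mitochondrial membrane, rose by 0.82 ± 0.12 (adjusted p = 0.000859). BAX, its close relative, had 132.6, 139 and 124 CPM in KO, against 143, 149 and 152 CPM in WT (adjusted p = 0.353). BIK fell, at under 1.3 CPM in each library, and lost its call in all fits with a library left out except that without KO replicate 2. Of 18 apoptosome, caspase and related genes, VDAC1, the main channel of the outer mitochondrial membrane, rose by 0.43 ± 0.13, and 2 genes fell. Among them was BIRC2, an inhibitor of apoptosis (-0.69), in a window with a median of -0.53. VDAC1 and BIRC2 lost their call in each of the 6 fits.

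The 13 mRNAs of the mitochondrial genome had a median change of 0.01. With edgeR 0 of them were called, and 1 had an unadjusted p under 0.05. Of 20 genes of mitochondrial DNA maintenance 0 rose and 3 fell. SLC25A4, the ADP/ATP carrier of heart and muscle, had 6.59, 6.76 and 10.3 CPM in KO, against 17.1, 17.6 and 15.7 CPM in WT (-1.13 ± 0.23). RRM2B, which supplies nucleotides to mitochondria and is a p53 target, averaged 38.1 CPM in KO and 68.6 CPM in WT (-0.86 ± 0.18). Among 46 genes of complex I 5 rose and 6 fell, and among 77 mitochondrial ribosomal proteins 3 rose and 4 fell. The cytosolic ribosomal protein genes had 1 higher and 14 lower members of 80, with a median of -0.26. The share called was 18.8%, near the 18.5% of all genes. The falls ran from -0.42 to -0.95, and the one furthest from 0 was RPS3, with 352, 385 and 354 CPM in KO, against 700.5, 678 and 733 CPM in WT (-0.95 ± 0.13, window median -0.52). Of the 80, 8 had a positive change, against 48.4% of all genes tested. Of the 14 that fell, 9 lay in windows with a median of -0.2 or less, where 11 of the 80 lay. The list median was still -0.26 after the median of each gene's window was subtracted. The number falling was 4 to 9 with a DMSO library left out and 12 to 19 under other scaling.

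Of 30 p53 targets and CDK inhibitors, 1 rose and 5 fell, 4 of the 5 in windows with a median of -0.2 or less, where 11 of the 30 lay. Of the 30, 8 had a positive change. The list median was -0.18, and -0.21 after the median of each gene's window was subtracted. SPATA18, a mitochondrial quality factor, had 0.289, 0.248 and 0.645 CPM in KO, against 6.16, 6.27 and 9.82 CPM in WT (-4.29 ± 0.31, adjusted p = 6.63e-06). PHLDA3, an inhibitor of AKT, had 92.7, 73.6 and 81.2 CPM in KO, against 150.4, 161 and 140.2 CPM in WT (-0.87 ± 0.12), and DDB2, a sensor of ultraviolet damage, rose by 0.75 ± 0.15 in a window with a median of 0.49. Of 41 lysosomal genes 1 rose and 5 fell, or 14.6% called, against 18.5% of all genes. The rise was SMPD1, acid sphingomyelinase, with 161, 167 and 145 CPM in KO, against 80.3, 76.0 and 93.9 CPM in WT (0.92 ± 0.14, window median 0.49), and ASAH1, acid ceramidase, fell by 0.83 ± 0.16 on the log2 scale. These enzymes act one after the other in the breakdown of sphingomyelin. Among 28 NRF2 targets and aldo-keto reductases 4 rose and 1 fell. AKR1B10, a reductase of aldehydes and retinal, had 28.4, 31.2 and 28.3 CPM in KO, against 3.56, 3.02 and 2.54 CPM in WT (3.26 ± 0.25, adjusted p = 1.05e-05). SLC7A11, the cystine importer, had 70.3, 66.4 and 67.6 CPM in KO, against 33.02, 30.3 and 46.4 CPM in WT (0.92 ± 0.19). Of 27 genes of the integrated stress response 1 rose and 4 fell, and 0 to 2 fell with a library left out. The amino acid transporter SLC7A5 had 1221, 1138 and 440.3 CPM in KO, against 1864, 1872 and 1317 CPM in WT (-0.97 ± 0.21, window median -0.53), a call lost without WT replicate 3 or KO replicate 3 (adjusted p of up to 0.103). Cholesterol and fatty acid synthesis (1 higher and 2 lower of 32) and ERK outputs with immediate early genes (1 higher and 0 lower of 26) had few called members, and other scaling gave 2 to 4 higher in the ERK list.

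**Figure D5:**
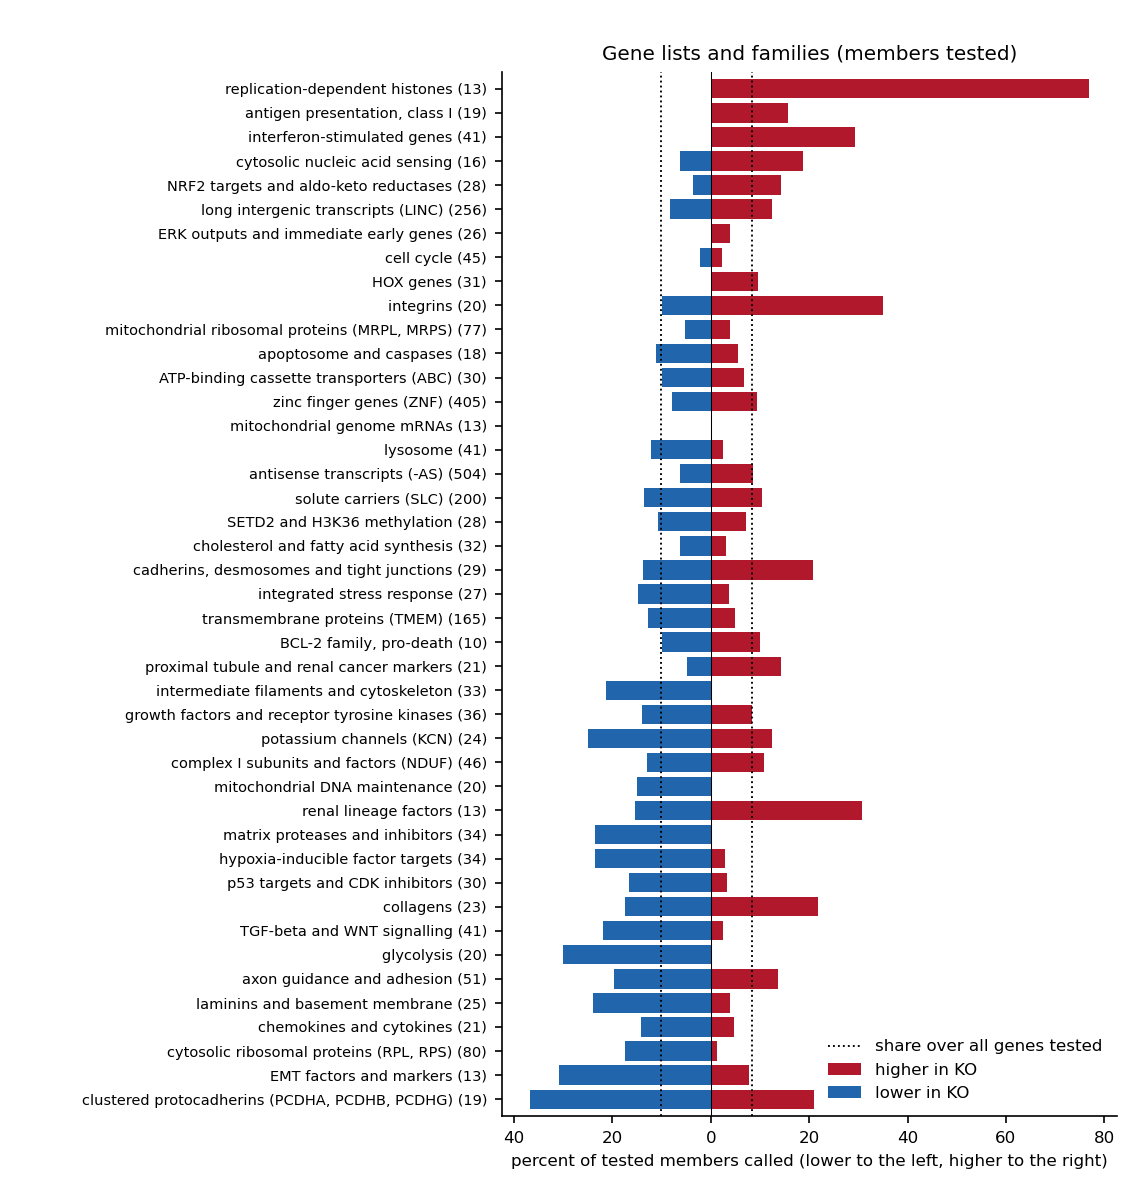
Bars give the percent of tested members called higher (red, right) or lower (blue, left) in KO cells for lists and families with 10 or more tested members, ordered by their median change, and dotted lines mark the shares over all genes tested (8.29% and 10.2%). Replication-dependent histones (10 of 13 higher) lie at the top and the clustered protocadherins (7 of 19 lower, 4 higher) at the bottom.

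Among 28 genes of SETD2 and H3K36 methylation 2 rose and 3 fell, or 17.9%, near the share over all genes. ZMYND11, a reader of H3K36me3, had 60.5, 61.1 and 71.8 CPM in KO, against 99.3, 92.1 and 99.9 CPM in WT (-0.59 ± 0.13, window median -0.37). PHF19, a Polycomb partner that binds H3K36me3, had 112, 108.5 and 51.6 CPM in KO, against 76.0, 79.0 and 27.0 CPM in WT (0.64 ± 0.13), and its call was lost without WT replicate 3 (adjusted p = 0.063). GLYR1, also a reader of the mark, rose by 0.74 ± 0.20 in a window with a median of 0.35 and lost its call in each fit with a library left out. The remaining methyltransferases and readers of the list were not called, other than SMYD2, which fell by 0.44 ± 0.12 on the log2 scale and lost its call without any 1 library.

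Calls varied with the level of the gene. With protein-coding genes divided into 5 equal groups by level, 19.3% rose and 10.2% fell in the group of lowest level (up to 6.13 CPM), with a median of 0.17, and 4.91% rose and 12.3% fell in the group of highest level. With 5 groups by the span from start to end, the longest genes had 9.90% higher and 14.2% lower, and the shortest had 9.07% higher and 10.9% lower. More gene names were detected in KO. After each library was thinned to 15199420 counts, 22851, 23162 and 24067 gene names had a count in KO, against 21218, 21354 and 22951 in WT, with KO above WT within each batch and an overlap across batches (WT replicate 3 was above KO replicate 1). For protein-coding genes alone the numbers were 14376, 14477 and 14625 in KO and 13724, 13730 and 14134 in WT, with no overlap.

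Of 1182 long non-coding RNAs tested 101 rose (8.55%) and 75 fell (6.35%), against 8.87% and 11.7% of 12629 protein-coding genes, a difference that was not tested. CCDC144NL-AS1 had 4.10, 4.34 and 4.86 CPM in KO, against 0, 0.0378 and 0.130 CPM in WT. LINC00632 (X chromosome) had 8.47, 8.18 and 11.9 CPM in KO, against 0.340, 0.680 and 0.585 CPM in WT (4.13 ± 0.32, adjusted p = 1.14e-05). TRHDE-AS1 and the protein-coding gene opposite it, TRHDE, a peptidase that degrades thyrotropin-releasing hormone, rose by 4.47 ± 0.43 and 4.11 ± 0.51. Reads were counted with a stranded setting. Among the falls, LINC00342 had 6.44, 7.10 and 10.5 CPM in KO, against 19.8, 24.9 and 32.8 CPM in WT. Antisense transcripts by name had 43 higher and 32 lower of 504, and long intergenic transcripts 32 higher and 21 lower of 256.

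Zinc finger genes (ZNF) had 38 higher and 32 lower members of 405 tested, or 17.3%, near the share over all genes. Of the 38 that rose, 20 lay in windows with a median of 0.2 or more, where 51 of the 405 lay. The window medians include the zinc finger genes themselves and were not computed without them. They are therefore not a separate measure of the surroundings of these genes. ZNF737 and ZNF486 lie in the same window of chromosome 19 (median 0.31), where 13 of 49 tested genes rose and 2 fell. ZNF486 rose by 1.30 ± 0.17 and ZNF737 by 1.596 ± 0.15, and ZNF358 fell by 1.21 ± 0.16 on the log2 scale. Solute carriers had 21 higher and 27 lower of 200, or 24.0%. SLC16A4, a monocarboxylate transporter relative, had 0.462, 0.217 and 0.695 CPM in KO, against 5.32, 5.18 and 20.02 CPM in WT, and the sodium/calcium exchanger SLC8A1 fell by 1.87 ± 0.17 on the log2 scale. Potassium channel genes had 3 higher and 6 lower of 24, or 37.5%, with KCNMB1, a subunit of the calcium-activated channel, higher (2.96 ± 0.51) and its relative KCNMB4 lower (-1.14 ± 0.15). HOX genes had 3 higher (HOXA13, HOXB4 and HOXD8) and 0 lower of 31, and no more than 1 HOX gene was called higher in any fit with 1 DMSO library left out.

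The summed level of 12 fibroblast markers was 25.1 to 25.7 CPM in KO and 24.2 to 32.96 CPM in WT, that of 12 endothelial markers 2.08 to 3.47 CPM in KO and 1.02 to 1.15 CPM in WT, and that of 13 neural markers 55.6 to 64.0 CPM in KO and 45.3 to 56.9 CPM in WT. The leukocyte sum was 153, 152 and 77.6 CPM in KO and 79.9, 84.7 and 24.1 CPM in WT. It was made mostly by LCP1, an actin-bundling protein also found in tumour cells, with 149, 149 and 75.4 CPM in KO, against 72.2, 76.9 and 18.5 CPM in WT (1.32 ± 0.22). Of the 4 leukocyte markers tested SRGN fell, as given above, and CD14, a monocyte co-receptor, rose by 2.95 ± 0.38, at no more than 1.36 CPM in any library, and the synaptic gene SNAP25 had 1.97, 2.48 and 2.38 CPM in KO, against 0.619, 0.378 and 0.715 CPM in WT. Of the other tested markers, LUM of fibroblasts fell by 1.87 ± 0.22 on the log2 scale and the neuronal tubulin gene TUBB3 by 1.26 ± 0.22, while PLVAP of endothelium rose by 4.45 ± 0.65 at an average of 0.712 CPM in KO and 0.032 CPM in WT. The neural marker MAP2 rose by 0.72 ± 0.22 and lost its call without any 1 library. The part of other cell types in the results was not tested. In bulk RNA, more cells of a kind and more RNA per cell cannot be told apart.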

How the data were processed

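Per the labels' protocols, RNA was extracted with Trizol, selected for poly(A), made into libraries with a NEBNext Ultra II kit and sequenced as paired reads on a NovaSeq instrument. The deposited values were raw counts per gene name, 1 table per library. Per the file headers, the authors made these counts with featureCounts 1.5.0-p3, summing exons with GENCODE 41 and the reverse-stranded setting. The submitters' processing notes also name STAR, MultiQC 1.7, DESeq2 and hg38. Reads shared by near-identical genes can be lost or split in such counts. Of 60606 gene names, 36623 matched GENCODE 29 and 3392 matched RefSeq alone for their class, and 20591 did not match. Names of several loci got no window.

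Counts of the 12 libraries of 786-O were fitted in edgeR 4.0.16 (R 4.3.3) with TMM scaling, the low-count filter by group (minimum count of 10), batch as a term and 7 residual degrees of freedom. The quasi-likelihood test compared KO with WT in DMSO, with Benjamini-Hochberg adjustment over 16260 genes and a threshold of 0.05. A1331852 and A498 libraries were also fitted apart. On simulated counts for 16260 genes the same fit recovered 58% of 2-fold and 86% of 4-fold changes in this comparison, with 8 false calls of 152. Only 100 genes were changed at each fold, libraries were drawn independently and no other gene differed between groups. The share of false calls therefore need not hold for the real libraries. Depth was 15199420 to 36037616 counts per library, and counting intervals without molecular identifiers cover counting error only.

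Replicates 1 and 2 of a genotype differed beyond sampling noise (mean chi-square per gene of 2.96 in KO and 3.47 in WT, against 82.1 to 118 in pairs with replicate 3). Deviations of same-numbered KO and WT libraries correlated at 0.569 to 0.765, so that the numbers were treated as pairs in an alternative fit. The deviations were taken from the mean of the 3 libraries of a genotype, so they also carry the difference between batches. Within batch 2, numbers 1 and 2 could not be told apart (0.601 and 0.566 between unlike numbers). The difference of replicates 1 and 2 in KO correlated at 0.027 with that in WT. Pairs within batch 2 were therefore not seen in the counts, and the block fits rest on the numbers alone there.

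The members, the 48 lists and families and the naming rule were picked with earlier results of these data known. The rule took SETD2, BCL-2 family and sensing genes, the 20 largest rises and 20 largest falls among called protein-coding genes with 5 CPM or more and no overlap within a batch, up to 4 called members per list, the 8 largest changes each way above 200 CPM, 5 long non-coding RNAs each way above 2 CPM, and 8 genes per direction with 3 or fewer counts in 1 genotype. Other called list members, the genes near silent in 1 genotype beyond those 8 and the examples were named after their values were seen. CPM were computed on TMM-scaled library sizes, and log2 CPM used a prior count of 2. The 20 alternatives, 2 of them added after seeing the data, covered DESeq2 1.42.0, limma 3.58.1 voom, scaling, filters, batch, pairing and left-out libraries. Some genes are not reported here.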

Additional observations from a re-analysis of the deposited data

Results flagged for a closer look

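The difference between KO and WT cells depended on treatment for 4 of the named genes, by a test of the difference itself (the interaction of genotype and treatment in the same edgeR fit, Benjamini-Hochberg adjusted over all genes). For AKR1B10 the KO effect was 1.34 in the A1331852 libraries fitted apart and 3.26 in DMSO, and the difference of the effects (A1331852 minus DMSO) was -1.93 on the log2 scale (adjusted p = 0.041). For the interferon-stimulated gene OASL the effect was 4.25 under A1331852 and 1.44 in DMSO, a difference of 2.81 (adjusted p = 0.00736). For CMPK2 it was 3.72 under A1331852 and 1.19 in DMSO, a difference of 2.52 (adjusted p = 0.00736). ABCC9, a subunit of potassium channels, had an effect of 0.43 under A1331852 and -1.02 in DMSO, a difference of 1.45 (adjusted p = 0.035). The window that holds ABCC9 had a median of -0.45 in DMSO. All A1331852 libraries carried batch 1, as did 1 DMSO library of each genotype, and the batch term does not cover a genotype effect that differs by batch. In the batch 1 DMSO libraries alone, the KO minus WT difference was 2.62 for OASL (1.08 in batch 2), 1.23 for CMPK2, 3.44 for AKR1B10 and -0.96 for ABCC9, with no test within that batch. Groups of 3 libraries are too small for a check of single libraries that stand apart.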

How the results depend on the processing

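The count of 3001 called genes (1348 higher, 1653 lower) stayed within 1.5 times under DESeq2, upper-quartile and relative log expression factors, either filter, and limma voom (2273 to 3743 calls). Upper-quartile factors turned the balance round (1586 higher, 1364 lower), as did leaving out KO replicate 3 (884 higher, 809 lower). It was 7446 (3592 higher, 3854 lower) with the 6 DMSO libraries alone, 1490 (699, 791) with no batch term, 9276 (4569, 4707) in batch 2 alone, and 398 (233, 165) with an added log2 threshold of 1. With the replicate block within treatment it was 4646 (2066, 2580), and 6214 (2958, 3256) with the replicate block in the 6 DMSO libraries, and the block ended the call of 0 named genes. Without 1 DMSO replicate at a time it was 1614 to 1777 (682 to 884 higher, 809 to 944 lower), and 46 of the 204 named called genes lost their call in at least 1 such fit, 20 of them in all 6. Chosen after seeing the data, leaving out replicate 3 of both DMSO groups gave 1761 (824, 937), and leaving out replicate 3 of both A1331852 groups gave 5621 (2516, 3105). The cause was not tested. No named gene reversed under any of the 20 alternatives, in which the median change of all genes ran from -0.03 to 0.04. With 3 libraries per genotype, 747 genes were called under every alternative without a fold threshold.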
